A study of Mus musculus with 10 samples.

Results

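The 9 genes described here are Cd79a, Cd79b, Blk, Ms4a1, Cd22, Cr2, Fcer2a, Pax5 and Ebf1, which encode the signalling chains of the B cell receptor, a receptor-proximal kinase, B cell surface proteins and coreceptors, and transcription factors of the B lineage. They were chosen by gene symbol, as 9 of the 55414 genes in the count table, and all 9 were among the 14669 genes with enough counts to be tested. Their transcripts were counted in 10 poly(A) RNA sequencing libraries made from macrophages of mouse spleen. There were 5 libraries from mice lacking formyl peptide receptor 2 (Fpr2-/-, genotype label Fpr2KO) and 5 from wild-type mice (WT, genotype label C57BL/6N). In both groups the cells were isolated by F4/80, the surface marker of mature mouse macrophages, using magnetic beads, and no treatment is labelled. The labels give neither the age and sex of the mice nor the background strain of the knockout. They do not tie each library to a separate animal, so the p-values below reflect only library-to-library spread, which may be technical.

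The B cell receptor is a membrane immunoglobulin held in a complex with the CD79A and CD79B chains, whose cytoplasmic tails are phosphorylated by Src family kinases such as BLK when antigen is bound. Coreceptors set the strength of that signal. CD21, encoded by Cr2, raises it when antigen carries complement fragments, and CD22 lowers it by recruiting phosphatases. EBF1 and PAX5 establish and keep B cell identity and act on genes of the receptor complex, Cd79a among them. Macrophages are not known to use this gene set, whereas spleen is rich in B cells of the follicles and the marginal zone.

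Upstream sequence is shown for the receptor chain Cd79a and the coreceptors Cd22 and Cr2, because their windows held a match to a motif of EBF1 or of E proteins, factors of the B lineage. RefSeq promoter entries on GRCm38.p6 were matched for 6 of the 9 genes, and the 250 bases before each start were trimmed to the longest stretch without an annotated exon base. Capitals mark a match to the EBF1 palindrome (TCCC and GGGA with any 2 bases between them) or to the E-box CAGGTG. Only exact matches were marked, so a site of these factors with other letters would stay in lower case. Both were searched on both strands together with the octamer ATTTGCAT and the ETS motif CAGGAAGT, which had no match in the windows of these members.
Cd79a, chr7:24897247-24897380, plus strand: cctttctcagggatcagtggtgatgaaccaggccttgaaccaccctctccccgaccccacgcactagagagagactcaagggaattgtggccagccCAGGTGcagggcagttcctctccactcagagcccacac
Cd22, chr7:30879029-30879176, minus strand: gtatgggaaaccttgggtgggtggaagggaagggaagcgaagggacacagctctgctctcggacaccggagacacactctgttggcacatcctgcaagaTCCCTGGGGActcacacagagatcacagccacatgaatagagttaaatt
Cr2, chr1:195176720-195176969, minus strand: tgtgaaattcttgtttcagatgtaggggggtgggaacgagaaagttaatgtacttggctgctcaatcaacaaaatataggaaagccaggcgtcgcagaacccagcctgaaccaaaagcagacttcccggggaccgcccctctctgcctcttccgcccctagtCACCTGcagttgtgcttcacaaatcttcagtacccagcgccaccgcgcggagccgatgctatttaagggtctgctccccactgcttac
The EBF1 palindrome lies 49 bases before the RefSeq start of Cd22, in a window that falls within the longer GENCODE span of the gene, and 0.441% of the 32851 RefSeq windows hold it in the same stretch. The E-box lies 154 bases before the RefSeq start of Cd79a and 88 bases before that of Cr2, and 9.75% and 17.2% of all windows hold it in the stretches searched for those genes. A second RefSeq window of Fcer2a, not printed, holds 2 E-boxes. The windows searched for Pax5 and Ebf1 and the other windows searched for Fcer2a held no match to any of these motifs. A match describes these letters and is not a measured binding site.

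The libraries held between 15865820 and 19060188 counts. Fpr2 had 0 reads over the Fpr2KO libraries and 1983 over the WT libraries, as labelled. Of the 14669 genes tested with edgeR's quasi-likelihood test, 10 passed a false discovery rate (FDR) of 0.05, 1 higher and 9 lower in Fpr2KO. Adgre1, the gene of F4/80, was measured at 524.5 ± 63.4 CPM (the count scaled by the TMM-adjusted library size) in Fpr2KO and 524.0 ± 60.1 CPM in WT (SD, n = 5 each).

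Transcripts of the B cell genes were abundant in the F4/80 isolates of both genotypes. Together they took between 0.325% and 0.427% of all counts in Fpr2KO libraries and between 0.24% and 0.359% in WT libraries. Even the gene with the fewest counts, Ebf1, had at least 1239 reads in each library, so counting error was small beside the spread between libraries. Per kilobase of merged exon, the levels over all 10 libraries followed the order Cd79a (298.4 ± 76.9 CPM per kb, SD), Cd79b (288.5 ± 50.7), Cd22 (97.7 ± 14.7), Blk (91.7 ± 15.3), Ms4a1 (90.0 ± 17.7), Cr2 (81.6 ± 15.2), Pax5 (39.9 ± 7.32), Fcer2a (31.5 ± 5.47) and Ebf1 (9.72 ± 1.61). The Cd79a and Cd79b levels stood in this order in 6 of 10 libraries and could not be ranked. Cd22, Blk and Ms4a1 lay within their spread of each other, with Cd22 above Blk in 7 of 10 libraries and Blk above Ms4a1 in 7 of 10. Ms4a1 was above Cr2 in 9 of 10 libraries. The other steps of the order, Cd79b above Cd22, Cr2 above Pax5, Pax5 above Fcer2a and Fcer2a above Ebf1, held in each of the 10 libraries.

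On the same scale Adgre1 averaged 161.9 CPM per kb over the 10 libraries, below both receptor chains and above the means of all other members. C1qc and Treml4, named below from the list of red pulp macrophage genes, averaged 267.1 and 121.9 CPM per kb. The T cell receptor chains Cd3e, Cd3d and Cd3g averaged 0.535, 0.892 and 0.98 CPM per kb. They are part of the T cell list given below, most of whose sum came from other genes. Adgre1 and the Cd3 genes were named after their values were seen, to set the B cell genes beside a macrophage gene and genes of the other main spleen lymphocyte. In bulk RNA, more B cells in an isolate and more RNA of these genes per cell cannot be told apart.

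The comparison of genotypes asked whether B cell transcripts in the isolate differed in the absence of Fpr2. None of the 9 genes passed the FDR of 0.05 by edgeR, DESeq2 or limma voom, beside 0.0682% of all genes tested that passed by edgeR in either direction and 0.00682% that were higher. All 9 estimates lay above 0 in Fpr2KO over WT, with a median log2 fold change of 0.18 and a range of 0.066 to 0.39, whereas 53.2% of all genes tested had an estimate above 0 and their median was 0.01. The 9 genes shared much of their spread over the libraries, as given below, so their signs are not independent of each other. At an unadjusted p under 0.05, 2 of the 9, Cd79a and Cd79b, were higher in Fpr2KO by edgeR, 2 also by DESeq2 and by limma voom, beside 4.88% of all genes tested that were higher and 9.8% that differed in either direction by edgeR. That count of 2 was 1 with RLE scaling, with no filter on low counts or without WT replicate 1, and 0 when Fpr2KO replicate 1, 3 or 4 or WT replicate 2 or 3 was left out. The genotype groups overlapped for each of the 9 genes, and 1.39% of all genes tested had groups that did not overlap.

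**Figure D1:**
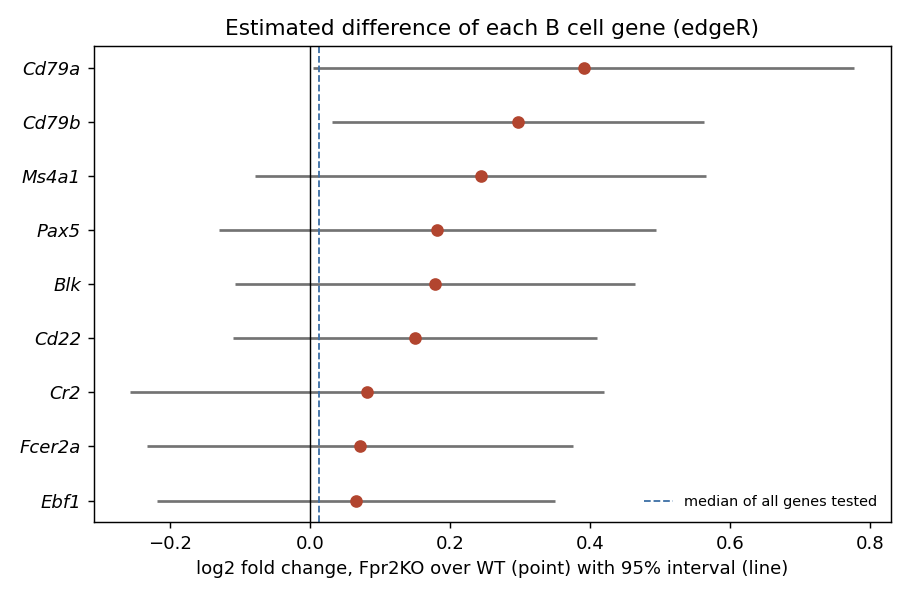
Log2 fold change of each B cell gene, Fpr2KO over WT, from edgeR (point) with its unadjusted 95% interval (line); the dashed line is the median of all genes tested, 0.01. All 9 points lie right of 0, between 0.066 and 0.39, and 7 of the 9 intervals include 0.

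Cd79a encodes the Ig-alpha chain of the receptor (GRCm38 in the GENCODE M21 annotation, as for all genes below, chromosome 7, 24897381 to 24902197, plus strand). It was measured at 502.3, 362.4, 475.9, 672.6 and 453.7 CPM in Fpr2KO replicates 1 to 5 and at 382.8, 243.4, 366.3, 457.3 and 431.3 CPM in WT replicates 1 to 5. Fpr2KO replicate 4 was the highest library and WT replicate 2 the lowest, and the groups overlapped, since Fpr2KO replicate 2 lay below 4 of the WT libraries. The log2 fold change was 0.39 (SE 0.18, 95% interval 0.0045 to 0.78, FDR = 0.504 by edgeR), and it was 0.25 without Fpr2KO replicate 4. Of the 31-base sequences of Cd79a transcripts, 12.2% also occur in another annotated gene, mainly Gm32220, so its count carries that uncertainty.

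Cd79b encodes the Ig-beta partner chain (chromosome 11, 106311341 to 106314762, minus strand) and shares none of its 31-base sequences. Its level was 474.0, 429.3, 488.5, 517.5 and 366.4 CPM in Fpr2KO and 384.0, 280.0, 337.9, 433.4 and 417.5 CPM in WT, in replicate order. Fpr2KO replicates 1, 3 and 4 lay above every WT library, and Fpr2KO replicate 5 lay below 3 of them. Fpr2KO over WT gave a log2 fold change of 0.30 (SE 0.12, 95% interval 0.03 to 0.56, FDR = 0.462 by edgeR), the smallest p of the 9 genes (unadjusted p = 0.0314, rank 997 of the genes tested).

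Blk encodes a Src family kinase found mainly in B cells that phosphorylates the receptor tails (chromosome 14, 63372836 to 63417037, minus strand). The libraries held 264.7, 232.4, 290.7, 297.8 and 228.2 CPM in Fpr2KO and 254.5, 172.8, 191.3, 265.5 and 276.7 CPM in WT. WT replicates 2 and 3 lay below every Fpr2KO library, and the other 3 WT libraries lay within the Fpr2KO range. Fpr2KO over WT gave a log2 fold change of 0.18 (SE 0.13, 95% interval -0.11 to 0.46, FDR = 0.680 by edgeR), which was 0.089 without WT replicate 2 and 0.11 without WT replicate 3.

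**Figure D2:**
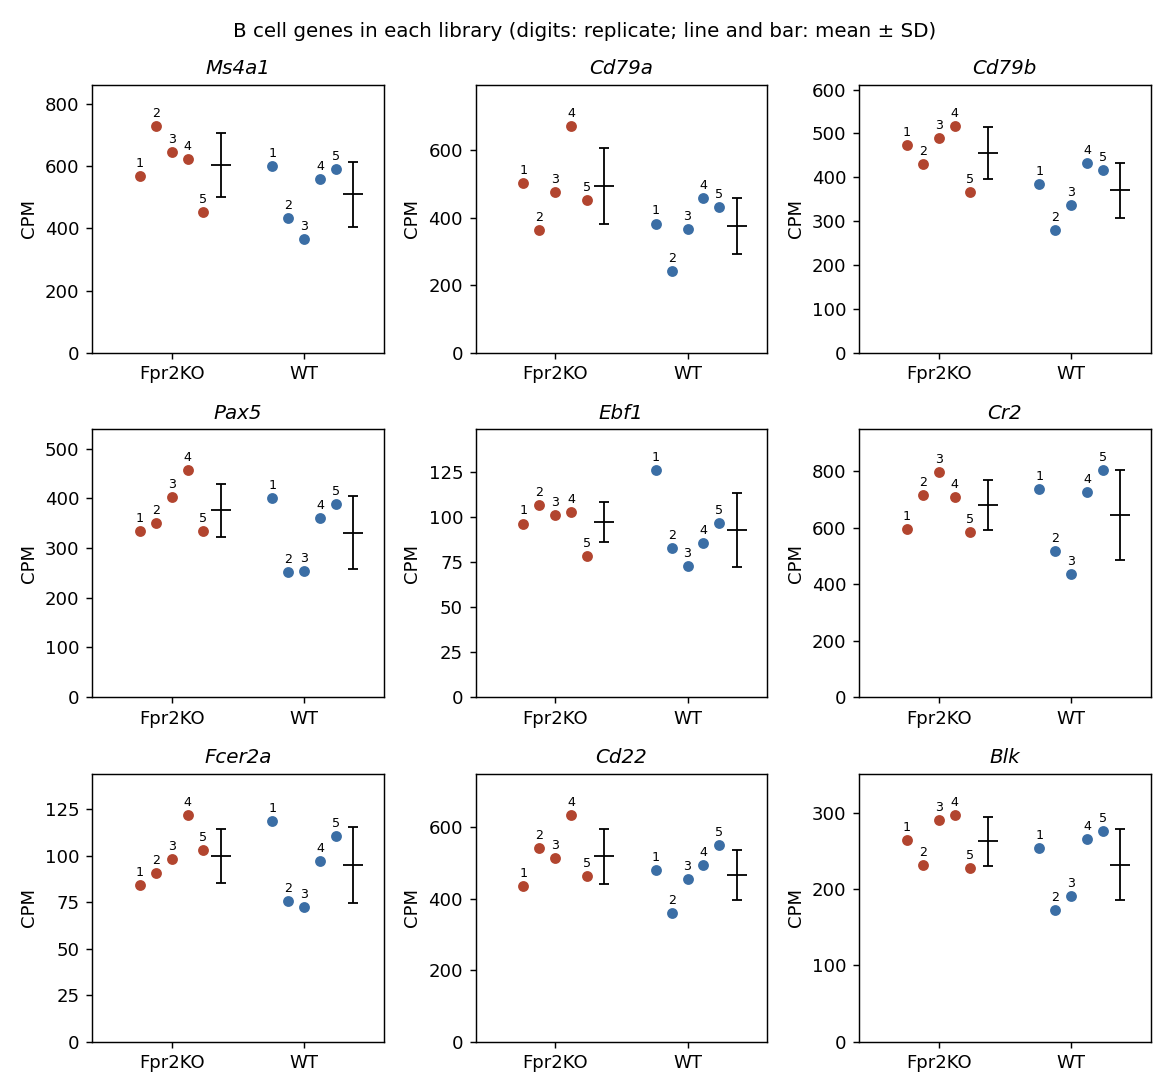
CPM of each B cell gene in each library, Fpr2KO left of WT, with digits for the replicate and the mean ± SD of each group (n = 5) beside its points. WT replicates 2 and 3 sit low in most panels and Fpr2KO replicate 4 sits highest in 6 of the 9.

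Ms4a1 encodes CD20, a membrane protein of B cells that is a common marker and antibody target (chromosome 19, 11249675 to 11266241, minus strand). Its values were 568.3, 730.1, 645.1, 622.6 and 452.6 CPM in Fpr2KO and 599.3, 434.0, 366.3, 559.6 and 590.4 CPM in WT. Fpr2KO replicates 2, 3 and 4 lay above every WT library, and Fpr2KO replicate 5 lay above WT replicates 2 and 3 alone. The log2 fold change was 0.24 (SE 0.15, 95% interval -0.08 to 0.57, FDR = 0.624 by edgeR), and it was 0.14 without WT replicate 3 and 0.16 without Fpr2KO replicate 2.

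Cd22 encodes an inhibitory sialic acid-binding coreceptor (chromosome 7, 30865402 to 30880342, minus strand). Levels were 436.5, 542.8, 512.6, 634.7 and 464.3 CPM in Fpr2KO and 480.5, 358.8, 454.2, 493.3 and 548.7 CPM in WT. Apart from Fpr2KO replicate 4 at the top and WT replicate 2 at the bottom, the libraries of both genotypes were interleaved. Fpr2KO over WT gave a log2 fold change of 0.15 (SE 0.12, 95% interval -0.11 to 0.41, FDR = 0.703 by edgeR), which was 0.066 without Fpr2KO replicate 4 and 0.068 without WT replicate 2. The antisense gene Gm29439 shares 479 exon bases with Cd22, and without a known strand setting their reads cannot be told apart.

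Cr2, which in mouse encodes both complement receptors CD21 and CD35, lies on chromosome 1 (195136811 to 195176716, minus strand). It was measured at 595.2, 714.8, 797.7, 710.0 and 586.1 CPM in Fpr2KO and at 737.4, 516.1, 434.5, 727.4 and 803.2 CPM in WT. WT replicate 5 was the highest library of all and WT replicate 3 the lowest, so the WT libraries spanned the whole range. The log2 fold change was 0.081 (SE 0.16, 95% interval -0.26 to 0.42, FDR = 0.892 by edgeR) and ranged from -0.038 without WT replicate 3 to 0.16 without WT replicate 5. Fcer2a, the gene of the low-affinity IgE receptor CD23 of follicular B cells (chromosome 8, 3681737 to 3694175, minus strand), was measured at 84.5, 90.6, 98.4, 122.1 and 103.3 CPM in Fpr2KO and at 118.8, 75.8, 72.6, 97.1 and 110.8 CPM in WT. Its log2 fold change was 0.071 (SE 0.14, 95% interval -0.23 to 0.38, FDR = 0.893 by edgeR), and its sign turned without Fpr2KO replicate 4, WT replicate 2 or WT replicate 3, where it lay between -0.018 and 0. Follicular dendritic cells also express Cr2 and Fcer2a, and the values of their markers stand below.

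Pax5 encodes the factor that keeps B cells committed (chromosome 4, 44524757 to 44710487, minus strand). It was measured at 333.3, 350.9, 403.5, 456.4 and 333.5 CPM in Fpr2KO and at 401.2, 251.6, 253.5, 361.1 and 388.1 CPM in WT. As for Blk, WT replicates 2 and 3 lay below every Fpr2KO library and the other 3 WT libraries lay within the Fpr2KO range. The log2 fold change was 0.18 (SE 0.15, 95% interval -0.13 to 0.49, FDR = 0.701 by edgeR). It was 0.094 without WT replicate 3, 0.097 without WT replicate 2 and 0.10 without Fpr2KO replicate 4. The transcript 5730488B01Rik on the other strand shares 636 exon bases with Pax5, 7.18% of its exon length.

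Ebf1 encodes the early B cell factor that acts upstream of Pax5 (chromosome 11, 44617317 to 45008091, plus strand). It was measured at 96.3, 106.8, 100.9, 102.7 and 78.2 CPM in Fpr2KO and at 125.9, 82.9, 72.6, 85.3 and 96.7 CPM in WT. WT replicate 1 was the highest library, and 4 of the Fpr2KO libraries lay together between 96.3 and 106.8 CPM. The log2 fold change was 0.066 (SE 0.13, 95% interval -0.22 to 0.35, FDR = 0.896 by edgeR), and it ranged from -0.017 without WT replicate 3 to 0.19 without WT replicate 1. The upper ends of the 9 unadjusted intervals lay between 0.35 for Ebf1 and 0.78 for Cd79a.

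Much of the spread was shared by the 9 genes within a genotype. The summed level was 3355, 3560, 3813, 4136 and 3066 CPM in Fpr2KO replicates 1 to 5 and 3485, 2415, 2549, 3480 and 3663 CPM in WT replicates 1 to 5, a mean of 3586 ± 411.9 CPM in Fpr2KO and 3118 ± 587.4 CPM in WT (SD, n = 5 each). Fpr2KO replicate 4 held the highest value of 6 genes, and all 9 genes lay above their Fpr2KO mean there on the log2 scale. WT replicates 2 and 3 held the lowest value of 5 and of 4 genes, with all 9 below their WT mean in both libraries. The other 3 WT libraries lay within the Fpr2KO range of the sum. Without WT replicate 2 the median log2 fold change of the 9 genes was 0.089, without WT replicate 3 it was 0.11 with 6 of 9 estimates above 0, and without Fpr2KO replicate 4 it was 0.10.

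**Figure D3:**
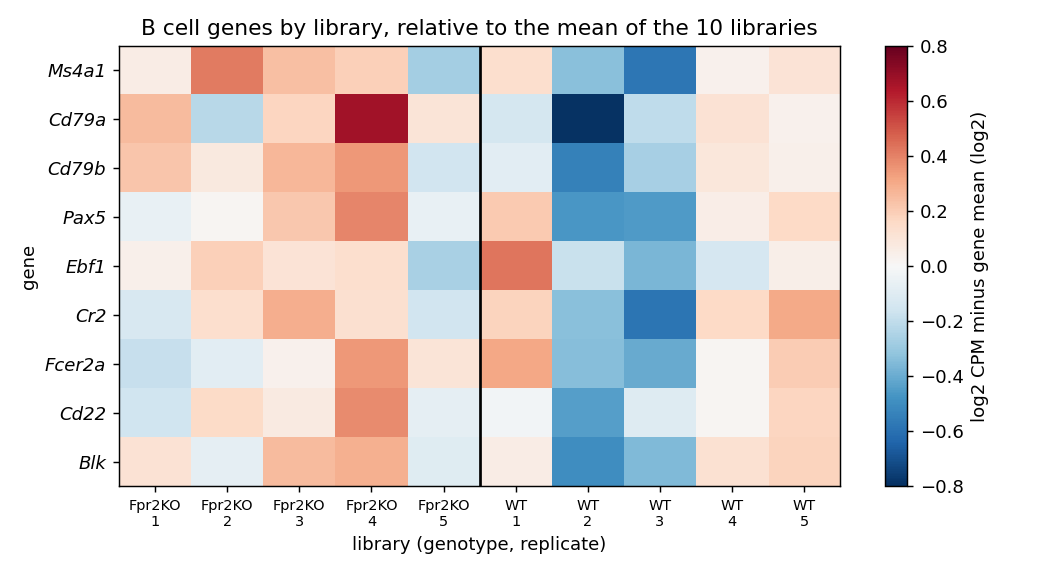
Log2 CPM of each B cell gene (rows) in each library (columns, Fpr2KO left of WT), minus the mean of that gene over the 10 libraries; red is above and blue below the mean. The columns of WT replicates 2 and 3 are blue in all 9 rows and the column of Fpr2KO replicate 4 is red in all 9.

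The genes did not follow each other equally closely. After centring within genotype, Pax5 lay nearest to the mean of the other 8 genes, with a root mean square difference of 0.06 on the log2 scale over 10 libraries, followed by Blk at 0.08. Cd79a lay farthest at 0.24, and Ebf1 and Ms4a1 followed at 0.18 and 0.17. The largest gaps were in Fpr2KO replicate 2, where Cd79a lay 0.43 below and Ms4a1 0.36 above the other genes (log2 deviations of -0.43 and 0.36).

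Ratios of CPM between pairs of members, which do not depend on library scaling, show the same departures. The ratio of Ms4a1 to Cd79a was 1.13, 2.01, 1.36, 0.926 and 0.997 in Fpr2KO replicates 1 to 5 and 1.57, 1.78, 1.00, 1.22 and 1.37 in WT replicates 1 to 5, with replicate 2 the highest of its group in both genotypes. The ratio of the receptor chains, Cd79a to Cd79b, averaged 1.08 ± 0.187 in Fpr2KO and 1.01 ± 0.0836 in WT (SD, n = 5 each). It was lowest in replicate 2 of both genotypes, at 0.844 in Fpr2KO and 0.87 in WT.

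The ratio of Cr2, which is high on marginal zone B cells, to Fcer2a, which is high on follicular B cells, averaged 6.91 ± 1.13 in Fpr2KO and 6.75 ± 0.65 in WT (SD, n = 5 each), a difference smaller than the SD of either group. The ratio of Pax5 to Ebf1 was 3.46, 3.29, 4.00, 4.45 and 4.26 in Fpr2KO and 3.19, 3.03, 3.49, 4.24 and 4.01 in WT, in replicate order. From lowest to highest the replicates stood in the same order in both genotypes, 2, 1, 3, 5 and 4. The labels do not say what a replicate number marks, and no test was made of these ratios, which were chosen after earlier results were known.

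**Figure D4:**
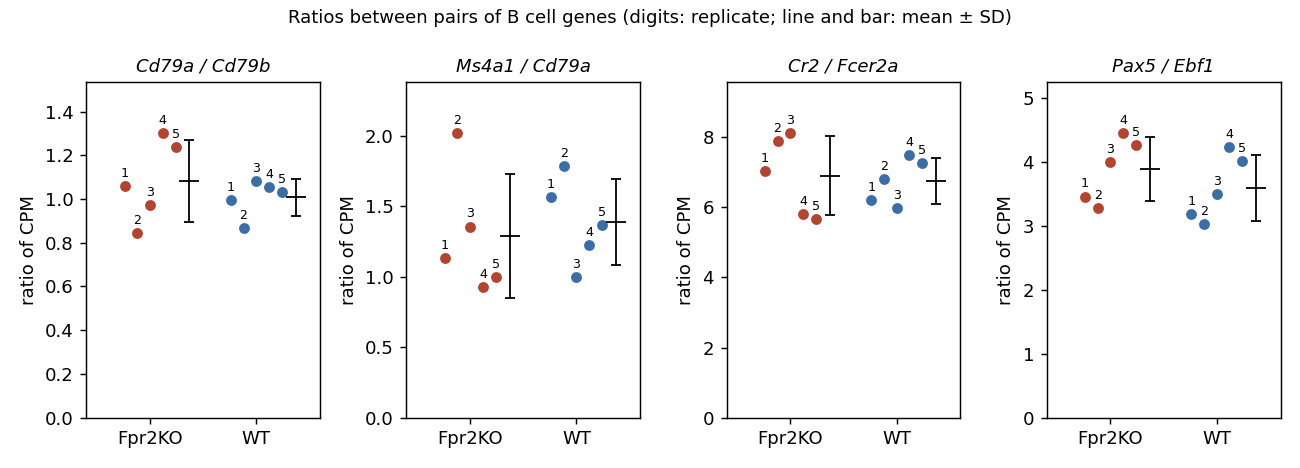
Ratio of CPM between 4 pairs of B cell genes in each library, Fpr2KO left of WT, with digits for the replicate and the mean ± SD of each group (n = 5). The genotype ranges overlap in all 4 panels, and replicate 2 has the highest ratio of Ms4a1 to Cd79a in both groups (2.01 in Fpr2KO and 1.78 in WT).

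No gene in the other B cell lists passed the FDR of 0.05 by edgeR, and the medians of the lists differed. In a list of 18 other B cell surface genes 17 estimates lay above 0, the median log2 fold change was 0.18, and 5 were higher at an unadjusted p under 0.05. Over all genes tested by edgeR, 53.2% of estimates lay above 0 and 4.88% were higher at that p. The counts of this list and of the lists below stand beside those shares. The smallest p-values were those of Tnfrsf13c, the receptor for the survival factor BAFF, at 72.6 ± 14.3 CPM in Fpr2KO and 55.0 ± 9.17 CPM in WT (log2 fold change 0.40, SE 0.14, FDR = 0.384 by edgeR), and of the glycoprotein gene Cd24a, at 478.0 ± 60.7 CPM in Fpr2KO and 389.2 ± 45.2 CPM in WT (0.30, SE 0.11, FDR = 0.397). Cd24a was highest in Fpr2KO replicate 1 and lowest in WT replicate 3 (544.6 and 320.4 CPM). So was the erythroid sum given below (1062 and 102.8 CPM), and the part of erythroid cells in the Cd24a values was not tested. Ighm, the heavy chain gene of IgM, which plasma cells also transcribe, was measured between 10295 and 31206 CPM in Fpr2KO and between 16505 and 41527 CPM in WT, and Ighd, the heavy chain gene of IgD of mature B cells, between 269.1 and 392.2 CPM in Fpr2KO and between 224.2 and 353.4 CPM in WT. The single estimate below 0 in the list was that of Ighm (log2 fold change -0.25, SE 0.36, FDR = 0.851 by edgeR).

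Among 20 genes of receptor signalling the median log2 fold change was -0.01, with 9 estimates above 0 and 11 below. Cd72, an inhibitory coreceptor, was measured at 151.6 ± 33.2 CPM in Fpr2KO and 116.2 ± 28.7 CPM in WT (log2 fold change 0.38, SE 0.18, FDR = 0.524 by edgeR). That estimate was 0.25 without Fpr2KO replicate 4. Many members of this list, such as Syk, Plcg2 and Ptpn6, are also expressed by macrophages.

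Of 13 transcription factors used by B cells, 11 had estimates above 0, with a median of 0.05, and 3 were higher at an unadjusted p under 0.05. Spib, an ETS factor of B cells and plasmacytoid dendritic cells, was measured at 203.9 ± 35.0 CPM in Fpr2KO and 157.8 ± 23.7 CPM in WT (log2 fold change 0.37, SE 0.13, FDR = 0.382 by edgeR). The E protein gene Tcf3 was measured at 134.2 ± 18.7 CPM in Fpr2KO and 110.5 ± 11.8 CPM in WT (0.28, SE 0.11, FDR = 0.417).

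Lists for B cell stages gave mixed signs. Marginal zone genes had 6 of 9 estimates above 0 (median 0.09), with Cd9, a tetraspanin, at a log2 fold change of -0.24 and Notch2, the receptor needed for marginal zone B cells, at -0.20 (SE 0.09 and 0.08, FDR = 0.422 and 0.424 by edgeR). Both genes are expressed by myeloid cells too. Follicular genes had 3 of 6 above 0 (median -0.04), where Klf2, a quiescence factor, had -0.30 (SE 0.14, FDR = 0.516) beside Tnfrsf13c. Klf2 was measured at 791.6 ± 144.0 CPM in Fpr2KO and 977.4 ± 191.7 CPM in WT (SD), above the group means of every member. Which cells its transcripts came from was not tested.

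Of 10 genes of early B cell development 4 could be tested, and the pre-B cell genes Vpreb2, Igll1 and Rag2 had no read in any library. Of those tested, Cd93, which monocytes and endothelium also express, stood at -0.33 on the log2 scale (SE 0.10, FDR = 0.289 by edgeR) and Vpreb3 0.24 (SE 0.20, FDR = 0.707), which was 0.066 without Fpr2KO replicate 4, 0.15 without WT replicate 3 and 0.16 without WT replicate 2. The genotype groups of Cd93 did not overlap, beside 1.39% of all genes tested, and those of Gata1, Car1 and Mmp8 below did not either. Germinal centre genes had 6 of 8 above 0 (median 0.26), led by Mybl1 and Nuggc at 0.45 and 0.69 (SE 0.24 and 0.45, FDR = 0.558 and 0.650), where Mybl1 was 0.22 without Fpr2KO replicate 2. Plasma cell genes had 6 of 9 above 0 (median 0.08), with Mzb1 at 0.48 (SE 0.35, FDR = 0.680) and Irf4 at -0.20 (SE 0.15, FDR = 0.693). Mzb1 was 0.28 without Fpr2KO replicate 1, and Irf4 was -0.044 without WT replicate 1 and -0.12 without Fpr2KO replicate 5. Which cells the Irf4 transcripts came from was not tested.

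Markers of other cells in the isolates are given beside these results. The sum of 12 red pulp macrophage genes was between 7563 and 9588 CPM in Fpr2KO and between 7400 and 9943 CPM in WT, with 7 of 12 estimates above 0 and none past the FDR. C1qc, a complement component, and Treml4 had its smallest p-values, with log2 fold changes of 0.26 and -0.13 (SE 0.14 and 0.10, FDR = 0.582 and 0.690 by edgeR), and Treml4 was -0.21 without WT replicate 5. The lowest macrophage sum in Fpr2KO, 7563 CPM, was in replicate 4, the library with the highest B cell sum. WT replicates 2 and 3, the libraries lowest in B cell genes, had 9447 and 9615 CPM, and Fpr2KO replicate 5, lowest among the Fpr2KO libraries, had 9482 CPM. The order did not hold throughout. WT replicates 1 and 4 had nearly the same B cell sum, 3485 and 3480 CPM, beside the lowest and highest macrophage sums, 7400 and 9943 CPM. Fpr2KO replicates 1, 2 and 3 had macrophage sums of 9588, 9514 and 8858 CPM beside B cell sums of 3355, 3560 and 3813 CPM. WT replicate 5 had 7781 CPM beside 3663 CPM. The part of macrophage content in the B cell values was not tested.

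T cell markers summed to between 186.0 and 212.6 CPM in Fpr2KO and between 160.6 and 212.4 CPM in WT, with 12 of 14 estimates above 0 and none past the FDR. Cd3e, Cd3d, Cd3g, Cd247 and Trac averaged 2.50, 1.77, 3.43, 2.70 and 3.70 CPM in Fpr2KO. In WT they averaged 1.87, 1.46, 2.97, 1.83 and 2.65 CPM, so most of the sum came from other genes of the list. Which cells those transcripts came from was not tested. The receptor chain genes Cd247 and Trac had log2 fold changes of 0.56 and 0.48 (SE 0.25 and 0.23, FDR = 0.493 and 0.519 by edgeR), and Cd247 was 0.33 without Fpr2KO replicate 4. NK cell markers summed to between 11.2 and 15.1 CPM in Fpr2KO and between 8.14 and 13.0 CPM in WT, with 6 of 7 above 0, Eomes at 0.88 and Klrb1c at 0.43 (SE 0.32 and 0.30, FDR = 0.399 and 0.658), and Klrb1c was 0.25 without WT replicate 1 and 0.27 without Fpr2KO replicate 5. Plasmacytoid dendritic cell markers, 5 of 7 above 0, summed to between 337.1 and 432.5 CPM in Fpr2KO and between 284.6 and 431.1 CPM in WT. Ly6d, a gene shared with B cells, made up much of that sum, at 235.5 ± 41.3 CPM in Fpr2KO and 201.4 ± 45.6 CPM in WT (SD). Its log2 fold change was 0.23 (SE 0.16, FDR = 0.664 by edgeR) and that of Cox6a2 0.87 (SE 0.51, FDR = 0.609). Ly6d was 0.14 without Fpr2KO replicate 1, WT replicate 2 or WT replicate 3, and Cox6a2 was 0.40 without Fpr2KO replicate 4 and 0.44 by limma voom.

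Follicular dendritic and stromal markers summed to between 180.0 and 355.7 CPM in Fpr2KO and between 178.0 and 447.1 CPM in WT, with 1 of 7 tested estimates above 0. Clu had a log2 fold change of -0.34 and Pdgfrb one of -0.12 (SE 0.24 and 0.17, FDR = 0.673 and 0.850 by edgeR). Clu was -0.078 without WT replicate 3, and Pdgfrb ranged from -0.21 without Fpr2KO replicate 1 to -0.041 without Fpr2KO replicate 4. No follicular dendritic marker in the list was at 0 in all libraries, and the part of these cells in the Cr2 and Fcer2a values was not tested.

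The lists that differed most between genotypes were those of erythroid cells and neutrophils. All 8 erythroid estimates lay above 0 with an unadjusted p under 0.05, none past the FDR by edgeR (median log2 fold change 1.64), and the sums were between 468.3 and 1062 CPM in Fpr2KO and between 102.8 and 468.5 CPM in WT. Of all genes tested, 4.88% were higher at that p by edgeR. Gata1 and Car1 had 0.75 and 1.88 (SE 0.18 and 0.44, FDR = 0.184 and 0.201 by edgeR). Both passed by DESeq2 (FDR = 0.0215 and 0.0243), and Car1 also passed by edgeR without WT replicate 3 (FDR = 0.0398). All 9 tested neutrophil estimates lay below 0, 6 with an unadjusted p under 0.05 and none past the FDR by edgeR (median -0.71), and the sums were between 369.9 and 686.0 CPM in Fpr2KO and between 616.1 and 1067 CPM in WT. Of the 14669 genes tested, 721 were lower at that p by edgeR. Mmp8 and Lcn2 had -0.74 and -0.83 (SE 0.16 and 0.22, FDR = 0.135 and 0.216). Mmp8 passed with no filter (FDR = 0.0227 by edgeR) and by DESeq2 (FDR = 0.00439), and Lcn2 passed by DESeq2 (FDR = 0.0272). The mitochondrial share of counts was 4.13 ± 1.10% in Fpr2KO and 5.51 ± 0.48% in WT (SD, n = 5 each). The part of these differences in the B cell estimates was not tested.

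**Figure D5:**
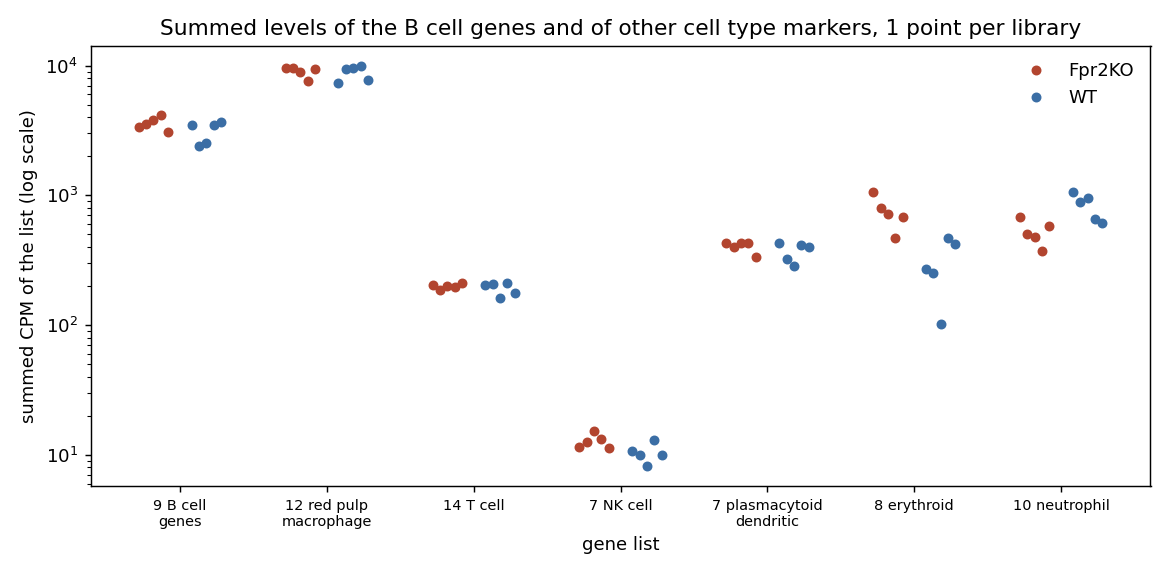
Summed CPM on a log scale of the 9 B cell genes and of marker lists of other cells, 1 point per library, Fpr2KO left of WT in each list. The B cell sums lie between 3066 and 4136 CPM in Fpr2KO and between 2415 and 3663 CPM in WT, below the red pulp macrophage sums and above the T cell and NK cell sums in each library.

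Among the 10 genes whose course over the 10 libraries lay nearest to the mean of the 9 members, by root mean square difference of log2 CPM centred within genotype, were Ets1 at 0.06, and Gimap6, Cnn3, Ablim1, Armt1, Fcmr, Edaradd, Bcl7a and Znrf3 at 0.07 to 0.09. The IgM Fc receptor gene Fcmr is itself in the list of B cell surface genes above, and Ets1 encodes a lymphocyte transcription factor. Ets1 stayed among the nearest 10 whichever library was left out, Gimap6 in 9 of 10 cases, and Edaradd, Bcl7a and Znrf3 in 3, 2 and 2. Without WT replicate 2, 3 of the 10 genes were kept. This check of the nearest genes was chosen after seeing the data. Ets1 was measured at 301.8 ± 45.4 CPM over the 10 libraries (SD), and its log2 fold change was 0.11 (SE 0.12, FDR = 0.781 by edgeR).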

How the data were processed

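The deposited table holds raw read counts per Ensembl gene, whole numbers that the authors did not normalise. Per the submitters' processing notes, HTSeq 0.10.0 and FastQC 0.10.1 were used with builds mm10 and GRCm38. The aligner, strandedness, multiple mapping and annotation were not given in the sources used here. Symbols, positions and exon lengths came from GENCODE M21, which matched 52081 of 55414 identifiers (all 9 members). The fit used edgeR 4.0.16 (R 4.3.3): low genes were removed with filterByExpr, libraries scaled by TMM, and Fpr2KO compared with WT by the quasi-likelihood test (robust, two-sided, no covariate), with Benjamini-Hochberg adjustment over all genes tested. The fit was also run on simulated counts, with known folds larger than those estimated for the members. That run therefore does not show whether differences of the members' size would be found. The SE is the log2 fold change divided by the square root of F. Alternatives were RLE and upper quartile scaling, no filter, DESeq2 1.42.0, limma voom 3.58.1, a replicate block and leaving out each library. Replicate pairs differed by more than sampling noise (chi-square per degree of freedom 12.4 to 69.2), so all 10 libraries were kept. Groups came from the genotype label and replicate numbers from the titles. Named were all members, Fpr2, in other lists genes past the FDR or else the 2 smallest p-values, and the 10 nearest protein-coding genes from a mean log2 CPM of 2 upwards (prior count 2). Members, lists and rules were chosen with earlier results of these data known, and Adgre1, Ighm, Ighd and the Cd3 genes after their values were seen. A gene that the rule names in other lists is not reported here.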

Additional observations from a re-analysis of the deposited data

Results flagged for a closer look

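In 3 of the groups of 5 libraries examined, 1 library stood apart from the others by more than Dixon's test allows at the 95% level, and none of these concerned the 9 B cell genes or their sum. Chance flags about 1 in 20 groups, and 80 groups were examined. Fpr2 was highest in WT replicate 3, at 33.6 CPM. Vpreb3, a gene of early B cells, was highest in Fpr2KO replicate 4, at 12.3 CPM, the library that also held the highest values of 6 of the B cell genes. Without it the log2 fold change of Vpreb3 was 0.066, against 0.24 with all libraries. Clu, a gene of stromal and follicular dendritic cells, was highest in WT replicate 3, at 107.1 CPM. Without it the log2 fold change of Clu was -0.078, against -0.34 with all libraries.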

How the results depend on the processing

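No B cell gene passed the FDR under any of the 6 other settings or with any library left out, and all 9 estimates stayed above 0 under the 6 other settings. With 1 library left out, between 6 and 9 estimates were above 0; that of Ebf1 ranged from -0.017 to 0.19, that of Cr2 from -0.038 to 0.16 and that of Fcer2a from -0.018 to 0.16 on the log2 scale. The members at an unadjusted p under 0.05 were 0 without Fpr2KO replicates 1, 3 or 4 or WT replicates 2 or 3, each left out alone, and 1 with RLE scaling, with no filter or without WT replicate 1. Over all genes 62 passed with no filter, 185 with DESeq2 and, with a library left out, 8 to 51 (51 without WT replicate 5, 26 without WT replicate 4 and 26 without Fpr2KO replicate 2). The cause was not tested. With the replicate block 64 genes passed, and Cd79a had a log2 fold change of 0.39 (FDR = 0.115 by edgeR). The block also brought Mmp8 and Lcn2 past the FDR (0.0387 and 0.0314 by edgeR) and changed no other call among the named genes. Same-numbered libraries deviated together for replicates 2 and 4 (r = 0.29 and 0.25 across genes, which are not independent replicates) but not for 1, 3 and 5 (r = -0.10, -0.10 and -0.24), so the numbers were not taken as pairs. With 5 libraries a group, the intervals of the members reach up to 0.78 on the log2 scale, and the depth of these genes is not the limit.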
